A study of Mus musculus with 16 samples.

Results

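The proteasome genes Psma1 to Psma7, Psmb1 to Psmb10, Psmc1 to Psmc6, Psmd1 to Psmd14 and Psme1 to Psme3 were followed in macrophages sorted from mouse gliomas. Of the 40 genes listed, 39 had a probe set annotated to that gene alone, out of 12394 genes measured on the arrays. Each gene's probe set was chosen by its level, as the brightest on average across the 16 arrays, and the genes themselves were selected on their function and on earlier results of these data, so that their levels are a description. Psme2 was left out because its probe set is also annotated to Psme2b.

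The series holds 16 Affymetrix arrays, each labelled with the sex and age of its own glioma-bearing mouse. All mice carried Nestin-Tv-a and lacked Ink4a/Arf (Nestin-Tv-a;Ink4a/Arf-/-) on a mixed background, and their tumours were started by intracranial injection of DF-1 cells releasing RCAS-PDGF-B-HA, a virus that infects the Nestin-positive cells made susceptible by the transgene. For 7 days, 8 mice received BLZ945, which blocks the kinase of the receptor for CSF-1, by daily gavage of 200 mg as labelled, with no body weight stated, and 8 received the vehicle, captisol. Macrophages were sorted from the dissected tumours as CD11b+ Gr.1- cells. Vehicle mice were 4 females and 4 males, with 4 mice of 11.29, 2 of 11.43 and 2 of 12.29 weeks, and BLZ945 mice were 5 females and 3 males, with 4 of 11.29 and 4 of 13.14 weeks. The labelled initial tumour volume, without a unit, ran from 11.9 to 27.3 in 6 Vehicle mice and from 41.3 to 132.3 in 8 BLZ945 mice, so agent and volume cannot be told apart. Mice were to enter treatment at 4.5 to 40 mm3, and all 8 labelled BLZ945 volumes are above 40. The macrophage gene Csf1r, which encodes the drug's target, averaged 13.61 ± 0.14 in Vehicle and 13.66 ± 0.12 in BLZ945 (log2, SD, n = 8 each).

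The proteasome is the barrel-shaped protease that degrades ubiquitin-tagged proteins. Its 20S core is built of outer rings of alpha subunits (Psma) and inner rings of beta subunits (Psmb), of which Psmb5, Psmb6 and Psmb7 carry the proteolytic sites. The 19S cap, with a ring of ATPases (Psmc) and a set of non-ATPase subunits (Psmd), binds, unfolds and feeds in the substrates. In immune cells and under interferon gamma, Psmb8, Psmb9 and Psmb10 take the places of Psmb5, Psmb6 and Psmb7 in newly assembled cores, which changes the peptides offered to MHC class I molecules, and the 11S activator made of Psme1 and Psme2 can take the place of a cap.

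Many genes of the constitutive core and cap were lower in macrophages of BLZ945 mice, while the means of the immune beta subunits differed by less than 0.1 on the log2 scale, with wide intervals. Of the 39 genes, 14 fell and 0 rose at an adjusted p under 0.05 (limma, Benjamini-Hochberg over all 12394 genes), and 35 had a difference below 0. Across all genes tested 7.94% passed, 5.34% fell, 2.6% rose and 38.9% had a difference below 0. Of the calls over all genes 67.3% were lower, 57.3% with quantile normalization repeated and 47.3% with the SD of each array as a covariate. With quantile normalization repeated, 16 of the 39 fell and 0 rose. The median difference over the 39 genes was -0.43 on the log2 scale (BLZ945 minus Vehicle), beside 0.07 over all genes. All 14 genes that fell belong to the constitutive core or the cap, which hold 14 and 20 of the 39 genes. None of Psmb8, Psmb9 and Psmb10 passed, and none of them passed in any alternative fit run. In 5 of the 39 genes, namely Psma1, Psmb2, Psmb4, Psmc4 and Psmc5, every BLZ945 mouse was below every Vehicle mouse, which 1.04% of all genes showed. In bulk RNA of sorted cells, fewer cells of a type and less RNA per cell cannot be told apart.

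**Figure D1:**
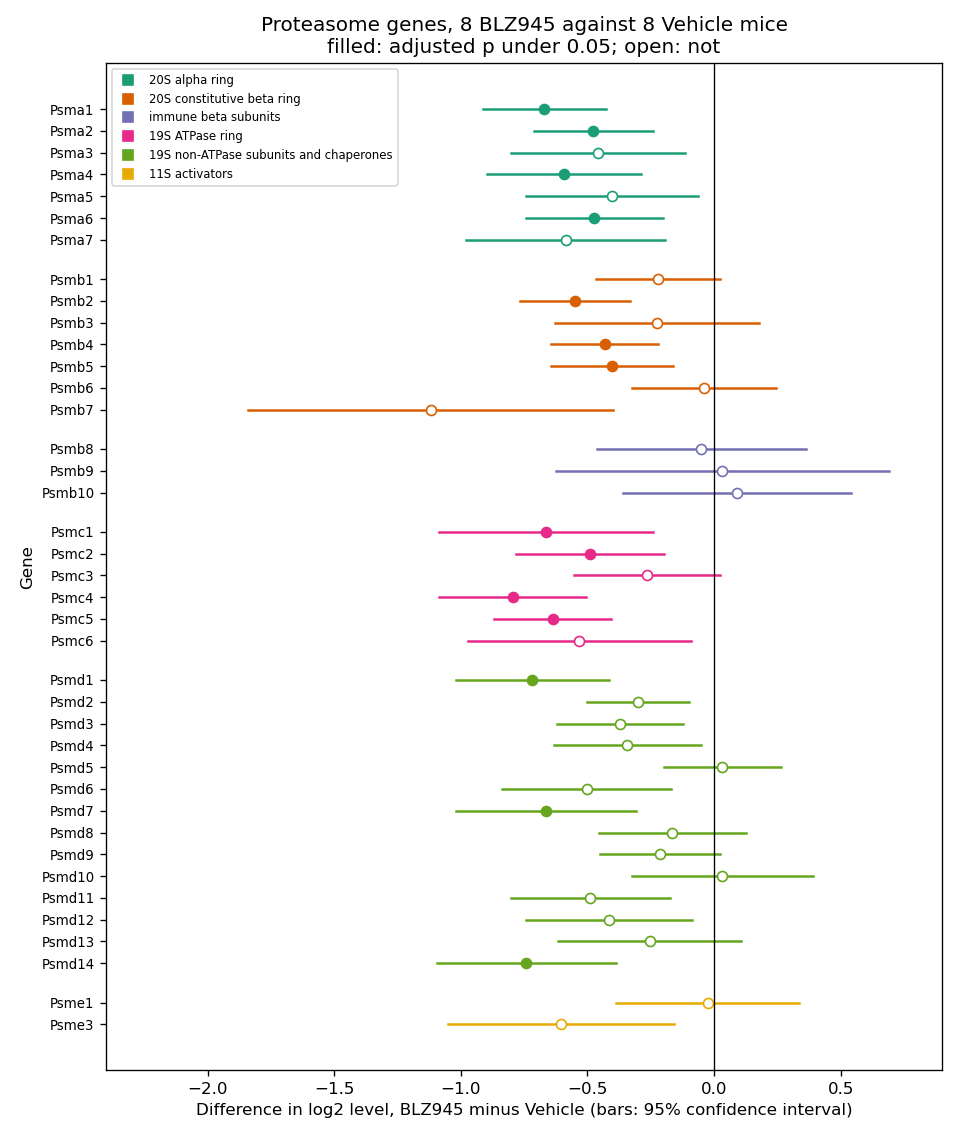
Difference in log2 level (x axis, BLZ945 minus Vehicle, bars are 95% confidence intervals from limma) of each of the 39 proteasome genes (y axis), coloured by class, with filled points for adjusted p under 0.05. The 14 filled points all lie left of 0 among core and cap genes, and the 3 immune beta subunits lie at -0.05, 0.03 and 0.09 with intervals that span 0.

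Some markers of tumour cells fell as well. Of 11 markers of glioma cells and their precursors, 5 fell and 0 rose, and their mean level ran from 5.96 to 7.42 in Vehicle and from 4.77 to 6.31 in BLZ945. Pdgfra, the receptor for the PDGF-B that drives these tumours, fell by 2.71, and Fabp7, a lipid carrier of glial progenitors, fell by 2.76. The other 6 did not pass, with Cspg4 at 0.44 and Nes at 0.12 above 0 and Sox10 (-0.07), Gfap (-0.12), Bcan (-0.22) and Sox2 (-1.32) below. With the mean of these markers as a covariate 0 of the 39 genes passed, beside 0.629% of all genes that fell in that fit, while 37 had a difference below 0, with a median of -0.46. In that fit Psmb8 differed by -0.61, Psmb9 by -0.75 and Psmb10 by -0.46, and none of them passed (limma, adjusted p = 0.266, 0.458 and 0.517).

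Of 19 cell cycle genes 18 fell. Rrm2, a ribonucleotide reductase subunit, fell by 3.29, and Mcm5, a replication helicase subunit, fell by 2.13. Their mean level ran from 7.38 to 8.54 in Vehicle and from 5.66 to 7.15 in BLZ945, without overlap. With that mean as a covariate 0 of the 39 genes and 0 of all genes passed, 34 of the 39 had a difference below 0 and the median was -0.19. Of 10 macrophage and microglia markers 3 fell and 0 rose, namely Tmem119 (-1.64), P2ry12 (-1.35) and Itgam (-1.17), the gene of CD11b, on which the cells were sorted. Their mean level ran from 11.45 to 12.09 in Vehicle and from 10.96 to 11.78 in BLZ945, and the part of these markers in the result was not tested. None of the measured markers of oligodendrocytes, neurons, endothelium and pericytes, T and NK cells, B cells or neutrophils passed. Of these the 7 T and NK cell markers were all on the higher side in BLZ945, with a list mean of 4.02 to 5.03 in Vehicle and 4.32 to 5.799 in BLZ945, and their part in the result was not tested.

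Within the mice of 11.29 weeks, 4 of each agent, 0 of 39 passed, beside 0.629% of all genes that fell, 35 had a difference below 0, and the median was -0.37. The SD of an array's log2 values ran from 2.30 to 2.49 in Vehicle and from 2.22 to 2.43 in BLZ945 (exact two-sided permutation p = 0.149), and with it as a covariate 18 of the 39 fell and 0 rose, with a median of -0.29, beside 6.28% of all genes that fell and 47.3% of all calls that were lower.

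The alpha subunits form the outer rings of the core and gate its entrance. Of 7 alpha genes 4 fell and 0 rose, and the other 3, Psma3, Psma5 and Psma7, differed by -0.46, -0.40 and -0.59. Psma1 had a lowest, median and highest level of 9.94, 10.32 and 10.56 in Vehicle and 9.25, 9.63 and 9.83 in BLZ945. The 2 groups did not overlap, and 7 of the 8 BLZ945 mice lay between 9.61 and 9.83. Its mean went from 10.28 ± 0.25 to 9.61 ± 0.16 (SD, n = 8 each), a fall of 1.59-fold (difference -0.67, SE 0.12, adjusted p = 0.0013). With its 3 probe sets averaged, of which the other 2 were dim, the difference was -0.28 and did not pass (adjusted p = 0.176).

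Psma4 ran from 9.86 through a median of 9.93 to 10.35 in Vehicle and from 8.74 through 9.47 to 9.91 in BLZ945, and fell by 0.59 (adjusted p = 0.0159). Only the highest BLZ945 mouse, BLZ945 6, reached into the Vehicle range. Psma2 ran from 10.22 through 10.33 to 10.49 in Vehicle and from 9.55 through 9.89 to 10.39 in BLZ945, and fell by 0.48 (adjusted p = 0.0122). Here too BLZ945 6 alone reached into the Vehicle range.

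Psma6, whose probe set was the brightest of the members, ran from 10.60 through 10.76 to 11.15 in Vehicle and from 9.96 through 10.25 to 10.755 in BLZ945, with BLZ945 3 and 6 inside the Vehicle range. It fell by 0.47 (adjusted p = 0.0292). Its call was lost when any of Vehicle 5, Vehicle 6, BLZ945 4, BLZ945 5 and BLZ945 7 was left out, with an adjusted p of at most 0.0649, and with its 4 probe sets averaged (-0.18, adjusted p = 0.263). The second brightest of these probe sets fell as well (-0.40), and the remaining ones were dim.

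The constitutive beta ring showed differences below 0 in 7 of 7 genes, of which 3 fell. Psmb2, a beta subunit without a proteolytic site, ran from 9.21 through a median of 9.43 to 9.64 in Vehicle and from 8.58 through 8.92 to 9.12 in BLZ945. The groups did not overlap, and the mean fell by 0.55 (SE 0.10, adjusted p = 0.0025). Psmb4, another non-catalytic subunit, ran from 10.14 through 10.33 to 10.54 in Vehicle and from 9.62 through 9.88 to 10.12 in BLZ945. It too showed no overlap and fell by 0.43 (SE 0.10, adjusted p = 0.0119). The non-catalytic Psmb1 and Psmb3 differed by -0.22 each (adjusted p = 0.272 and 0.49).

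Among the catalytic genes of the constitutive ring only Psmb5 passed in the main fit, and the differences between the 3 genes were not tested. Psmb5, which carries the chymotrypsin-like site, ran from 9.11 through a median of 9.37 to 9.62 in Vehicle and from 8.60 through 9.005 to 9.29 in BLZ945, and fell by 0.40 (SE 0.12, adjusted p = 0.0364). BLZ945 4 and 8 reached into the Vehicle range, and the call was lost on leaving out any 1 of 10 mice, Vehicle 1, 4, 5, 6, 7 or 8 or BLZ945 1, 3, 5 or 7 (adjusted p up to 0.0734). It was lost as well with arrays centred on their medians (adjusted p = 0.0519) and with quantile normalization repeated (0.0745). Psmb6, with the caspase-like site, ran from 9.48 through 9.70 to 9.97 in Vehicle and from 9.05 through 9.73 to 10.19 in BLZ945. Its difference was -0.04 with a 95% confidence interval of -0.32 to 0.24 (adjusted p = 0.877). Psmb7, with the trypsin-like site, had a wide spread (SD 0.84 in Vehicle and 0.70 in BLZ945), from 7.51 through 8.54 to 9.49 in Vehicle and from 6.34 through 7.29 to 8.31 in BLZ945. Its difference of -1.12 (SE 0.34) had an adjusted p of 0.0522, which passed without any 1 of Vehicle 5, 6 and 7 and BLZ945 1 and 4 (adjusted p down to 0.0277).

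**Figure D2:**
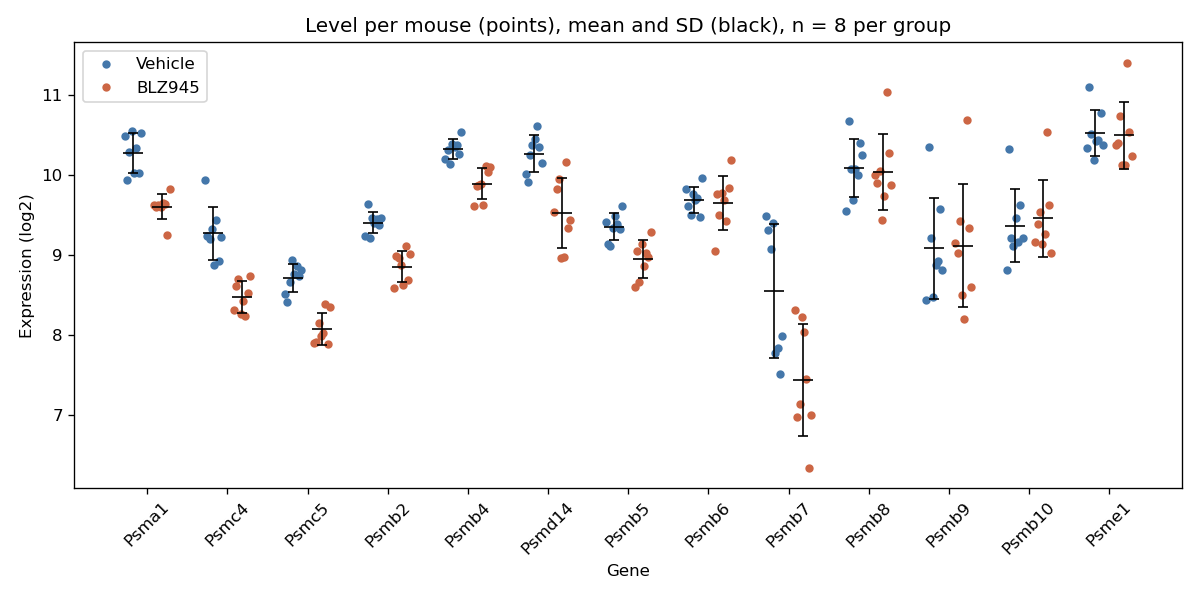
Log2 expression (y axis) of 13 proteasome genes (x axis) in each mouse, blue for Vehicle and orange for BLZ945, with the mean and SD in black (n = 8 each). Psma1, Psmc4, Psmc5, Psmb2 and Psmb4 part without overlap, whereas Psmb6, Psmb8, Psmb9, Psmb10 and Psme1 overlap widely, with BLZ945 6 at 11.04 for Psmb8 and 10.70 for Psmb9.

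The immune beta subunits showed no change beyond the spread between mice. Psmb8, which takes the place of Psmb5, ran from 9.55 through a median of 10.08 to 10.68 in Vehicle and from 9.44 through 9.95 to 11.04 in BLZ945. Psmb9, which takes the place of Psmb6, ran from 8.44 through 8.90 to 10.36 in Vehicle and from 8.20 through 9.09 to 10.70 in BLZ945. Psmb10, which takes the place of Psmb7, ran from 8.82 through 9.22 to 10.32 in Vehicle and from 9.02 through 9.32 to 10.54 in BLZ945. In each of the 3 genes the highest mouse was Vehicle 2 in the Vehicle group and BLZ945 6 in the BLZ945 group.

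The differences were -0.05 for Psmb8 (95% confidence interval -0.46 to 0.36), 0.03 for Psmb9 (-0.63 to 0.69) and 0.09 for Psmb10 (-0.36 to 0.54), with adjusted p of 0.893, 0.959 and 0.817. These intervals include falls as large as the median of the 39 genes for Psmb8 and Psmb9. Without BLZ945 6 the differences were -0.19, -0.19 and -0.06, and with quantile normalization repeated across the arrays they were 0.02, 0.10 and 0.15.

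Relative to the Vehicle mean, the mean of Psmb8, Psmb9 and Psmb10 minus that of Psmb5, Psmb6 and Psmb7 differed by 0.54 in BLZ945 (SD 0.62 in Vehicle and 0.71 in BLZ945, n = 8 each), a description with no test. It lay from -0.95 to 0.78 in Vehicle and from -0.34 to 1.81 in BLZ945, with 3 of 8 BLZ945 mice above every Vehicle mouse. Gene by gene, Psmb10 minus Psmb7 differed by 1.21, Psmb8 minus Psmb5 by 0.35 and Psmb9 minus Psmb6 by 0.07. Most of the shift thus sat in the place of Psmb7, and with Psmb7 left out it was 0.25. Psmb7 has a single probe set with widely spaced values inside each group, and whether these belong to the gene or to the probe set was not tested. Against all 14 constitutive core genes the immune mean differed by 0.50, with 1 of 8 BLZ945 mice above every Vehicle mouse and 7 above the Vehicle mean. The shift was -0.29 with the glioma marker mean as a covariate and -0.0029 with the labelled tumour volume. In the volume fit Psmb7 differed by 1.38, beside -1.12 without the covariate, while Psmb5 differed by -0.78 and Psmb6 by -0.57. Psmb8, Psmb9 and Psmb10 differed by -0.19, 0.15 and 0.05 in it, and none of these genes passed. Labelled volumes of the 2 agents did not overlap, so this fit cannot tell agent and volume apart.

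Promoters are shown for immune and constitutive genes, since Nfe2l1 is known to drive constitutive proteasome genes and interferon gamma to induce the immune ones. Each run gives the 250 bases before the start of transcription, 5′ to 3′ on the gene's own strand, from RefSeq on GRCm38.p6, at chr17:34187331-34187580 (minus strand) for Psmb9, chr14:54617996-54618245 (minus) for Psmb5, chr11:70525107-70525356 (plus) for Psmb6 and chr7:114276117-114276366 (minus) for Psma1. Capitals mark every match on either strand to the interferon-stimulated response element, read as GAAA and GAAA with any 2 bases between, to TGACNNNGC, the core of the antioxidant response element bound by Nfe2l1 and Nfe2l2, and to CCAAT, the CCAAT box. No marked matches overlap here.
Psmb9 promoter: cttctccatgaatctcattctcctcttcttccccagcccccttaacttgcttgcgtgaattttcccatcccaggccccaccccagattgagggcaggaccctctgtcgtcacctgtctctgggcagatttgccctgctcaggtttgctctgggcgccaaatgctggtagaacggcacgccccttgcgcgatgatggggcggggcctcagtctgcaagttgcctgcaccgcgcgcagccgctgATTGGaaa
Psmb5 promoter: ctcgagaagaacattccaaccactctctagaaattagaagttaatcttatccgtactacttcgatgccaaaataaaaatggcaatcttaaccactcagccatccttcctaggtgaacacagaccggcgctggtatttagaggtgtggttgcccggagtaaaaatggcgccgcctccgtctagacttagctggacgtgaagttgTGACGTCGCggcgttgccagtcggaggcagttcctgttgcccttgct
Psmb6 promoter: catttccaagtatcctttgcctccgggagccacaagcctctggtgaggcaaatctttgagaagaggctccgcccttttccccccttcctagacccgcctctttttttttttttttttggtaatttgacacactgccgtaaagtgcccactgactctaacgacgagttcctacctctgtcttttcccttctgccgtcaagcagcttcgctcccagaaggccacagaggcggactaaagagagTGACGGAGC
Psma1 promoter: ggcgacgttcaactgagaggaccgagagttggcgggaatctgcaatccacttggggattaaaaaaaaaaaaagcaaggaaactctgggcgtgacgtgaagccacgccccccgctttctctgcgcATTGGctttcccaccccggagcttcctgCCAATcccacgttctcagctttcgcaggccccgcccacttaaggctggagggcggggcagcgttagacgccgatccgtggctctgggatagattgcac

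Entries were found for 34 of the 40 genes, with 37 promoters, and none for Psmb1, Psmb2, Psmb7, Psmc3, Psmd3 and Psmd7. A member gene counts when any of its promoters matches. The share of all promoters is instead per promoter, over 32851 of the RefSeq table, so these shares differ in unit. The antioxidant core was found in 5 of the 34 (14.7%), namely Psmb5, Psmb6, Psmc6, Psmd9 and Psmd12, and in 10.2% of all promoters. Of these 5 genes only Psmb5 fell, beside 14 of all 39 genes, which include Psmb2 and Psmd7, without an entry. The interferon element was found in Psmb3, Psmd4 and Psmd9 (8.82%) and in 2.98% of all promoters, and the CCAAT box in 13 (38.2%) and in 33.9%.

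Further patterns were searched on both strands of the same promoters. The ETS core CGGAAG was found in 16 of the 34 genes (47.1%) and in 13.6% of all promoters, and none of Psmb8, Psmb9 and Psmb10 held it. Of these 16 genes 6 fell, namely Psma4, Psma6, Psmc1, Psmc2, Psmd1 and Psmd14, beside 14 of all 39 genes. Those 14 include Psmb2 and Psmd7, which have no promoter entry. Psma1, Psmb4, Psmc4 and Psmc5, whose groups did not overlap, did not hold the pattern. The longer ETS pattern GGAAGTG was found in 4 genes (11.8%, beside 8.55% of all promoters), the NF-kB pattern, GGGA and CC with any 4 bases between, in 8 (23.5%, beside 17.6%), the cAMP element TGACGTCA in 0 (beside 1.55%), and the antioxidant core followed by any further base within the window in 4 (11.8%, beside 10.1%). A match is a run of letters and not a shown binding site, and the patterns were chosen after the values were seen.

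The ATPase ring unfolds substrates above the core. Of its 6 genes 4 fell and 0 rose, with a median difference of -0.58 over the 6. Psmc4 ran from 8.87 through a median of 9.23 to 9.94 in Vehicle and from 8.24 through 8.48 to 8.74 in BLZ945. The groups did not overlap, and its fall of 0.80 (1.74-fold, SE 0.14, adjusted p = 0.00136) came from 9.27 ± 0.33 to 8.48 ± 0.20 (SD, n = 8 each).

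Psmc5 ran from 8.41 through 8.75 to 8.94 in Vehicle and from 7.89 through 8.00 to 8.39 in BLZ945, and fell by 0.64 (SE 0.11, adjusted p = 0.0013). In Psmc5, too, every BLZ945 mouse was below every Vehicle mouse.

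Psmc1 ran from 8.03 through 8.53 to 9.08 in Vehicle and from 7.17 through 7.83 to 8.52 in BLZ945, and fell by 0.66 (adjusted p = 0.0493). Psmc2 ran from 10.18 through 10.51 to 10.84 in Vehicle and from 9.57 through 10.13 to 10.39 in BLZ945, and fell by 0.49 (adjusted p = 0.0358). In both genes BLZ945 2, 3 and 6 lay inside the Vehicle range. Both calls were lost on leaving out any 1 of Vehicle 1, 4, 5, 6, 7 and 8 and BLZ945 1, 4, 5 and 7, and that of Psmc1 without BLZ945 8 too, with adjusted p up to 0.104 for Psmc1 and 0.0776 for Psmc2. With probe sets averaged they differed by -0.32 and -0.43 and did not pass (adjusted p = 0.0655 and 0.0745). Psmc3 and Psmc6 differed by -0.26 and -0.53 (adjusted p = 0.266 and 0.135).

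Among the 14 non-ATPase genes of the cap, 3 fell and 0 rose. Psmd14, the deubiquitinase that removes ubiquitin chains from substrates at the cap, ran from 9.91 through a median of 10.31 to 10.61 in Vehicle and from 8.97 through 9.49 to 10.17 in BLZ945. Only BLZ945 3 and 6 reached the Vehicle range, and the mean fell by 0.74 (SE 0.17, adjusted p = 0.00994). Psmd1, a large scaffold subunit, ran from 9.18 through 9.57 to 9.88 in Vehicle and from 8.36 through 8.90 to 9.24 in BLZ945, and fell by 0.72 (SE 0.14, adjusted p = 0.00413). Psmd7, the partner of Psmd14 in the lid, ran from 7.23 through 7.66 to 8.13 in Vehicle and from 6.39 through 7.15 to 7.51 in BLZ945, and fell by 0.66 (adjusted p = 0.0199). With its 3 probe sets averaged Psmd7 differed by -0.15 and did not pass (adjusted p = 0.351). BLZ945 2 and 3 overlapped Vehicle for Psmd1, and BLZ945 2, 6 and 8 for Psmd7.

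The lid subunits Psmd6 and Psmd11 differed by -0.50 and -0.49 with adjusted p of 0.0595 and 0.0507, and the scaffold subunit Psmd2 by -0.30 with 0.0613. Psmd4, a receptor for ubiquitin chains, differed by -0.34 (adjusted p = 0.144). The remaining cap subunits Psmd3, Psmd8, Psmd12 and Psmd13 differed by -0.37, -0.17, -0.42 and -0.25 and did not pass. Psmd5, Psmd9 and Psmd10 are chaperones that help assemble the cap and are absent from the finished particle. They differed by 0.03, -0.21 and 0.03 (adjusted p = 0.877, 0.272 and 0.92). Psmd9, the dimmest member, ran from 6.39 through a median of 6.79 to 6.99 in Vehicle and from 6.14 through 6.50 to 6.86 in BLZ945, with wide overlap. With these 3 chaperones set apart, a choice made after the values were seen, all 31 genes of the constitutive core and cap had a difference below 0, with a median of -0.48 and a range of -1.12 to -0.04.

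**Figure D3:**
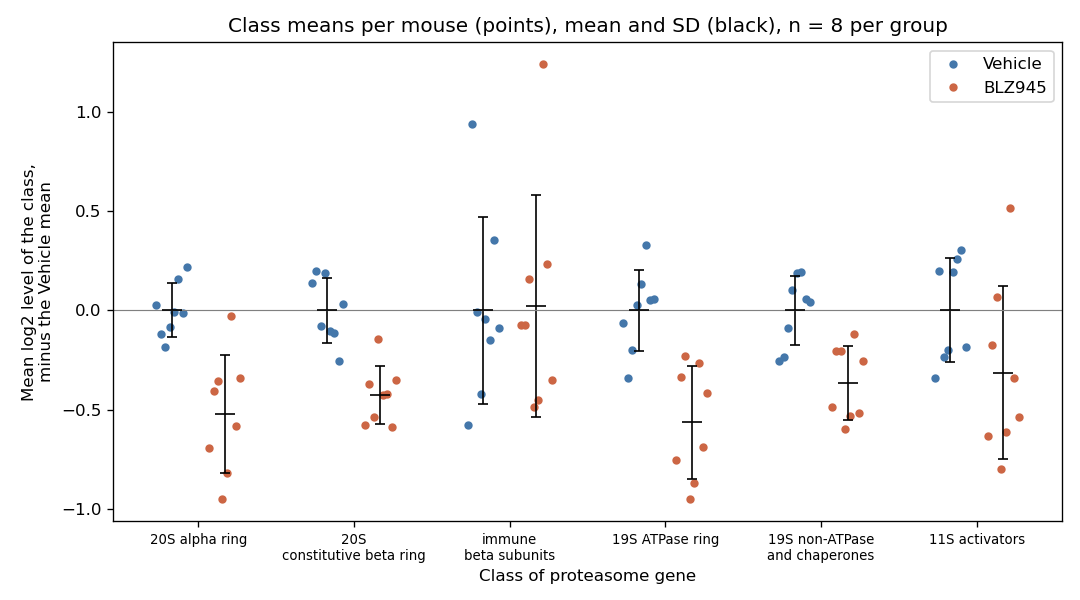
Mean log2 level of each class of proteasome gene per mouse, minus the Vehicle mean of the class (y axis), for 6 classes (x axis), blue for Vehicle and orange for BLZ945, with the mean and SD in black (n = 8 each). For the alpha ring and the constitutive beta ring 7 of 8 BLZ945 mice lie below every Vehicle mouse, and for the immune beta subunits none does.

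Of the activators, Psme1, a subunit of the interferon-induced 11S activator, ran from 10.19 through a median of 10.44 to 11.11 in Vehicle and from 10.13 through 10.39 to 11.41 in BLZ945. Its difference was -0.03 with a 95% confidence interval of -0.39 to 0.34 (adjusted p = 0.942). Psme3, which forms a nuclear activator on its own, ran from 6.55 through 6.93 to 7.65 in Vehicle and from 5.84 through 6.30 to 7.20 in BLZ945, a difference of -0.60 (adjusted p = 0.0933). Psme1 thus showed a small difference, as the immune beta subunits did, and was highest in the same mice, Vehicle 2 and BLZ945 6.

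Genes around the proteasome were taken from lists of related functions. Of 11 measured assembly and accessory proteins 2 fell and 0 rose: Uchl5, a deubiquitinase bound to the cap, fell by 1.00 (adjusted p = 0.0206) and Psmg1, a chaperone of the alpha ring, by 0.35 (adjusted p = 0.0431). With probe sets averaged Uchl5 did not pass (-0.62), nor did Psmg1 with quantile normalization repeated (-0.29). Pomp, which guides assembly of the beta rings, differed by -0.27 (adjusted p = 0.112). Of 7 measured ubiquitin genes and shuttle factors, 1 fell, the unfoldase gene Vcp, by 0.36 (adjusted p = 0.049), and 0 rose. With its probe sets averaged Vcp differed by -0.0039.

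Nfe2l1, which drives proteasome genes when proteasome activity falls short, differed by 0.02 (95% confidence interval -0.19 to 0.23, adjusted p = 0.905) and its relative Nfe2l2 by 0.25 (adjusted p = 0.262). Of 5 measured genes of that list 1 rose, Nrf1, a regulator of mitochondrial genes, by 0.39 (adjusted p = 0.0313), and with probe sets averaged it did not pass (0.20). Of 10 heat shock chaperone genes 3 fell and 0 rose, with differences of -2.83 for Hspa1b, -2.13 for Hspa1a and -0.73 for Hsp90aa1.

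Of 10 genes of MHC class I peptide loading, 1 fell and 0 rose. This was Calr, an endoplasmic reticulum chaperone, by 0.37 (adjusted p = 0.0494), which did not pass with probe sets averaged (-0.30), while the peptide transporter gene Tap1 differed by 0.12 (adjusted p = 0.84). Of 18 interferon-induced genes and factors, 1 rose, the transcription factor Irf8, by 0.49 (adjusted p = 0.0144), and 0 fell. The median difference was 0.10 over the peptide loading list and -0.26 over the interferon list, of which 14 genes were below 0.

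Across mice the immune beta subunits varied together. Over the 16 mice, with each mouse's deviation taken from its group mean, Pearson's r among Psmb8, Psmb9 and Psmb10 ran from 0.91 to 0.93, and from 0.73 to 0.82 without Vehicle 2 and BLZ945 6. Psme1 followed them with r of 0.92 to 0.98. Among the 31 core and cap genes the median r over 465 pairs was 0.42, with a range of -0.84 to 0.95. Between the immune genes and the core and cap it was 0.22 over 93 pairs, with a range of -0.57 to 0.67 and 66 pairs above 0, and the difference between these medians was not tested. These r values describe shared variation over the same arrays, which differ in the spread of their values, and carry no test.

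In RefSeq gene order Psmb9, Tap1, Psmb8 and Tap2 are neighbours within the MHC on mouse chromosome 17, Psmb10 lies on chromosome 8 and Psme1 on chromosome 14. Tap1 followed Psmb9 with r of 0.89, Psmb10 with 0.87 and Psmb8 with 0.79. The genes other than the 39 with deviations most like the mean of Psmb8, Psmb9 and Psmb10 were Igtp (r = 0.98, Spearman's rho = 0.90), Gbp2b (0.95 and 0.86), Gbp2 (0.95 and 0.82), Iigp1 (0.95 and 0.86) and Parp14 (0.94 and 0.79). Igtp, Gbp2b, Gbp2 and Iigp1 encode interferon-induced GTPases. Each of the 5 was highest in Vehicle 2 and in BLZ945 6 of its group, and Igtp ran from 8.10 to 10.45 in Vehicle and from 8.15 to 11.33 in BLZ945. Without those 2 mice the r values ran from 0.81 for Parp14 to 0.92 for Igtp.

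The genes most like the mean of the other 36 members were Ola1 (r = 0.94), Psip1 (0.94), Chchd3 (0.93), Nasp (0.93) and Utp11 (0.92), each lowest of the Vehicle mice in Vehicle 2 and highest of the BLZ945 mice in BLZ945 6. Of these 5 only Nasp, a histone chaperone, fell (-0.995, adjusted p = 0.0242). BLZ945 6 was also the highest BLZ945 mouse in 11 of the 31 core and cap genes, and BLZ945 4, the array with the smallest SD of log2 values (2.22), was the lowest in 13.

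**Figure D4:**
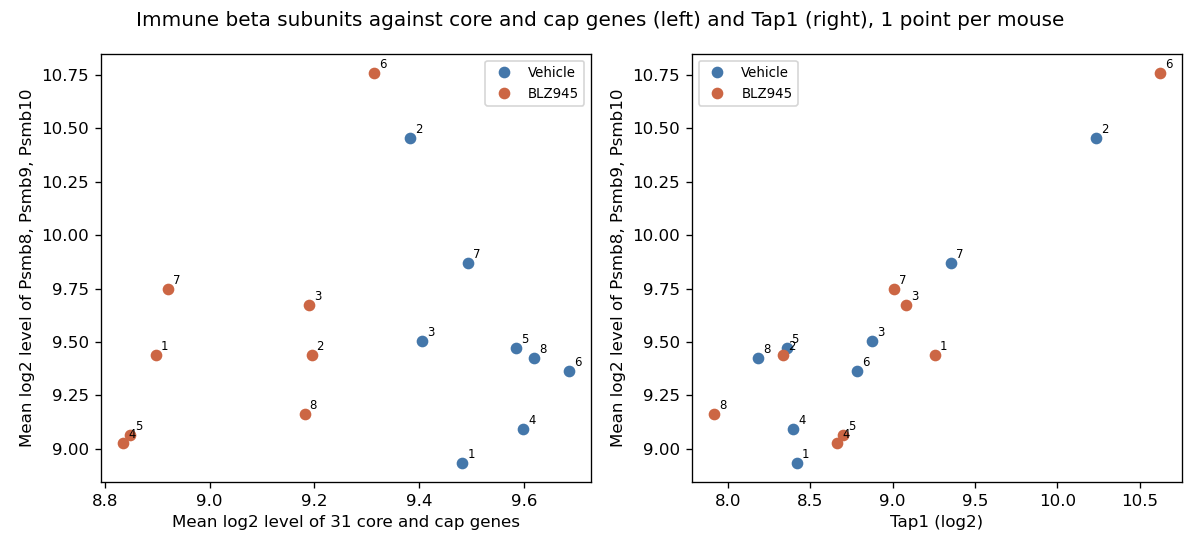
Mean log2 level of Psmb8, Psmb9 and Psmb10 per mouse (y axis) against the mean of 31 core and cap genes (left, x axis, log2) and against Tap1 (right, x axis, log2), blue for Vehicle and orange for BLZ945, with replicate numbers beside the points. On the left the agents part along the x axis, all BLZ945 mice at or below 9.31 and all Vehicle mice at or above 9.38, with no such parting along the y axis, where BLZ945 6 (10.76) and Vehicle 2 (10.45) are highest.

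The agent difference was compared between the sexes. Over the 39 genes it had a median of -0.53 in females and -0.31 in males and was below 0 in 35 and 32 genes. The interaction of agent and sex passed for 0 of the 39 genes, 4 of which had an unadjusted p under 0.05, and for 0 of all genes (0%, limma, smallest adjusted p of the 39 = 0.983). Males and females, with the agent in the fit, differed in 0 of the 39 genes, 5 of which had an unadjusted p under 0.05, beside 0.0323% of all genes.

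Within BLZ945, 29 of the 39 genes were lower in the 4 mice of 13.14 weeks than in the 4 of 11.29 weeks, beside 44.8% of all genes, with a median difference of -0.28. None of the 39 passed (limma, smallest adjusted p = 0.153), 7 had an unadjusted p under 0.05, and 0.0403% of all genes passed. Psmc1 differed most by p, with means of 7.49 in the older and 8.28 in the younger mice (difference -0.79, SE 0.20), followed by Psmd14 with 9.18 and 9.87 (difference -0.69, SE 0.19). Both genes fell with BLZ945, and in both the older mice had the lower mean, a difference that did not pass. The array SD ran from 2.22 to 2.35 in the older and from 2.28 to 2.43 in the younger mice. Its part in the age difference was not tested.

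Second probe sets were on the array for 18 of the 39 genes. Of 31 further probe sets 19 had a difference below 0, 6 fell and 0 rose when all probe sets were fitted. The 6 were the second probe sets of Psma6 (-0.40), Psma7 (-0.50), Psmb3 (-0.54), Psmc4 (-0.57) and Psmd6 (-0.57) and a further probe set of Psmd11 (-0.64). Across all 20393 probe sets of that fit 39.9% had a difference below 0, 4.67% fell and 2.14% rose. The brighter probe sets of Psma7, Psmb3, Psmd6 and Psmd11 did not pass. In the other direction, further probe sets of genes that fell did not pass: those of Psma1 differed by -0.28 and 0.11, that of Psmb4 by -0.29, that of Psmc2 by -0.38 and those of Psmd7 by 0.08 and 0.14. With all probe sets of a gene averaged, 9 of the 14 genes that fell did so again. Psma1 (-0.28), Psma6 (-0.18), Psmc1 (-0.32), Psmc2 (-0.43) and Psmd7 (-0.15) did not pass on averaging. These averages take in dim probe sets of Psma1 (mean levels 4.06 and 4.04), Psma6 (4.75 and 3.12), Psmc1 (2.94) and Psmd7 (5.82 and 3.17). The further probe set of Psmc2 was bright (9.57). In the fit of all probe sets Psmc1 had an adjusted p of 0.0541. Psmb5, Psmb6, Psmb7, Psmb8, Psmb9 and Psmb10 had a single probe set each.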

How the data were processed

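The deposited log2 values, 1 per probe set and array, were used as the authors gave them. GCOS 1.4 and RMA appear in the submitters' processing notes, with no role given, and the sources used here give no annotation version. Detection calls were not used here. The number of arrays limits the precision. Of 22690 probe sets, the platform annotation gives 20393 a sole gene symbol, 691 several and 1606 none. Symbols were looked up by gene identifier in RefSeq, which held 20364 and altered 0. Groups came from the sample titles. The difference between agents was fitted with lmFit and eBayes (limma 3.58.1, R 4.3.3) over 12394 genes, with neither a covariate nor a filter on dim genes, and the fit was tested on simulated data. No arrays held the same values (largest r between a pair 0.991). Nothing in the labels names a batch.

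Permutation tests used scipy 1.17.1. Same-numbered mice did not all vary together (r of deviations from -0.48 to 0.39), so replicate numbers were not taken as pairs. Members and lists were chosen with earlier results of these data known and get no set test. Named genes are the members, up to 4 called genes per list by p or else 2, and the 5 genes most like each of 2 member means. Csf1r, Nfe2l1, Nfe2l2, Pomp and Tap1 fall outside that rule and were named after their values were seen. A further promoter result is not reported here.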

Additional observations from a re-analysis of the deposited data

Results flagged for a closer look

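Among 78 groups of 8 mice, the 39 genes in each agent, 3 held a mouse that stood apart from the rest, where chance flags about 1 in 20 groups. Psma1 in BLZ945 7 was 9.25, the lowest of its group, with the next mouse at 9.61. Psma4 in Vehicle 8 was 10.35, the highest of its group, with the next at 10.06. Psmb10 in BLZ945 6 was 10.54, the highest of its group, with the next at 9.63.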

How the results depend on the processing

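The number of genes that fell, 14 as reported, was between 13 and 20 with all probe sets averaged (13 genes, 9 of them among the 14), dim genes left out, repeated quantile normalization, median centring, other eBayes settings, array weights, sex or array SD as covariate, and the replicate block (13 genes, 11 of them among the 14), and 0 rose in each. It was 0 with the glioma marker mean, with log2 tumour volume (14 mice), with the cell cycle mean (an alternative chosen after seeing the data), in the mice of 11.29 weeks and in males, and 2 in females. Of all genes 0.0888% fell with tumour volume, 0.0161% in males and 2.19% in females. With tumour volume the median over the 39 genes was -0.79, with 34 below 0, and 15 of all genes passed. Without 1 mouse 10 to 21 fell, fewest without BLZ945 7 and most without BLZ945 6, and 0 rose. Of the 14 genes, 10 passed in all 16 of these fits. The immune minus constitutive difference of 0.54 was -0.29 with the glioma marker mean and -0.0029 with tumour volume, and 0.36 to 0.67 without 1 mouse. With the cell cycle mean, the log2 differences of Psmc1 (0.0453) and Hsp90aa1 (0.0795) changed sign to the higher side, and neither passed. With tumour volume that of Tmem119 changed sign as well (0.11). All of these genes had passed in the main fit. Signs changed among members that had not passed too. With tumour volume Psmb7 went from -1.12 to 1.38 and Psmb3 from -0.22 to 0.67, and neither passed. The cause was not tested.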

Other observations

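Psmb7 took widely spaced levels inside each group. It lay at 9.49, 9.32, 9.08 and 9.41 in Vehicle 1 to 4 and at 7.78, 7.84, 7.51 and 7.99 in Vehicle 5 to 8, with no Vehicle mouse between 7.99 and 9.08. Among BLZ945 mice the levels were 8.31 in BLZ945 1, 8.23 in BLZ945 4 and 8.04 in BLZ945 5, and the other 5 lay from 6.34 to 7.45. Over deviations from the group means in 16 mice, Psmb7 had a median r of -0.46 with the other 30 core and cap genes and was below 0 with 25 of them. Psmb3 had a median r of -0.55 with the others, and Psmb7 had r of 0.72 with Psmb3 and 0.80 with Psmd3. These patterns were noticed in the data and carry no test.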
